A study of Mus musculus with 14 samples.

Results

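The Dectin-2, Mincle and Dcir lectin family is described here through 7 of the 55335 genes measured: Clec4n, Clec4e, Clec4d, Clec4a1, Clec4a2, Clec4a3 and Clec5a, all C-type lectin receptors of myeloid cells. They were chosen by symbol, as receptors other than Clec7a (Dectin-1) that myeloid cells carry and that could act in its place. The data are 3' single-cell RNA counts, in which each unique molecular identifier (UMI) stands for 1 captured RNA molecule, from 14 libraries of dissociated whole mouse spinal cord at P115-120. The 4 groups were nTg (no transgene, 3 libraries), Clec7a-KO (strain label B6.129S6-Clec7atm1Gdb/J, 4 libraries), SOD1G93A (strain label B6SJL-Tg(SOD1*G93A)1Gur/J, an amyotrophic lateral sclerosis model that carries a mutant human SOD1 transgene, 3 libraries) and SOD1G93A/Clec7a-KO, which carries both (4 libraries). All mice were perfused with buffer, the cords were digested enzymatically at 37 °C, myelin was removed with beads, and no cell type was sorted. The labels do not say whether each library came from 1 animal, so p-values measure at most the spread between libraries. Strain labels differed between the groups, and 6 of the 7 genes lie on the same chromosome as Clec7a within 6.53 Mb of it, so that the knockout and the background linked to it cannot be told apart.

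C-type lectin receptors bind sugars and glycolipids of microbes and of damaged cells through an extracellular carbohydrate-recognition domain. Clec4n (Dectin-2), Clec4e (Mincle) and Clec4d (MCL, a partner of Mincle) signal through the adaptor FcRγ, encoded by Fcer1g, to the kinase Syk and on through Card9, Bcl10 and Malt1 to NF-kB and inflammatory cytokines, while Clec5a (MDL-1) uses the adaptors Dap12 and Dap10, encoded by Tyrobp and Hcst. Clec4a2 (Dcir) works in the opposite direction: its cytoplasmic tail recruits the phosphatases encoded by Ptpn6 and Ptpn11 and restrains activation. Clec4a1 and Clec4a3 are close relatives of Clec4a2 in the same gene cluster. Microglia, the resident macrophages of the central nervous system, express several of these receptors, and border-associated macrophages of the meninges and vessel walls, monocytes and neutrophils are known to express others.

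In the GRCm38 annotation, all 7 genes are on chromosome 6. Clec4a1 (ENSMUSG00000049037.8) spans chr6:122921848-122934619, Clec4a3 (ENSMUSG00000043832.13) chr6:122952515-122969875, Clec4a2 (ENSMUSG00000030148.15) chr6:123106428-123143999, Clec4n (ENSMUSG00000023349.14) chr6:123229843-123247021 and Clec4d (ENSMUSG00000030144.4) chr6:123262111-123275265 on the plus strand, and Clec4e (ENSMUSG00000030142.10) chr6:123281789-123289870 on the minus strand. These 6 genes lie 6.17 to 6.53 Mb from Clec7a, and Clec5a (ENSMUSG00000029915.14, chr6:40574894-40585821, minus strand) lies 88.9 Mb away. Clec4a1, Clec4a2 and Clec4a3 are similar in sequence, so reads could have been split among them in counting, and their separate values are uncertain to that extent.

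Of the 3 genes that rose in microglia with the transgene, Clec4n had no promoter entry. Promoters are shown for the other 2, Clec4d and Clec4e, and for Clec4a2, which fell. Each is 250 bases before to 50 bases after the RefSeq start (GRCm38.p6), written 5′ to 3′ on the gene's strand, at chr6:123261857-123262156 (plus), chr6:123289822-123290121 (minus) and chr6:123122440-123122739 (plus) in that order. Capitals mark matches to 4 motifs searched on both strands: GAGGAA (PU.1), TTGCNNAA (C/EBP), TGANTCA (AP-1) and the NF-kB motif.
Clec4d: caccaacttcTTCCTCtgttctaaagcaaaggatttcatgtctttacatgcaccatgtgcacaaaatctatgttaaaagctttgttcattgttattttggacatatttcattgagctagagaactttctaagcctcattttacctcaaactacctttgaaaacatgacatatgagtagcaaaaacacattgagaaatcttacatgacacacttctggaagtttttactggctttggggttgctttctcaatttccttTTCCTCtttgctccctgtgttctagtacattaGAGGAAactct
Clec4e: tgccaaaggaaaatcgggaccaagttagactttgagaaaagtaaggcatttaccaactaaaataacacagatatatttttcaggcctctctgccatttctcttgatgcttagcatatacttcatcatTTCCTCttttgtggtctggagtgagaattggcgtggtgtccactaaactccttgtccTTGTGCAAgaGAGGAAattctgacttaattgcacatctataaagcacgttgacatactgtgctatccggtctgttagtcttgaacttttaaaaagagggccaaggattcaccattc
Clec4a2: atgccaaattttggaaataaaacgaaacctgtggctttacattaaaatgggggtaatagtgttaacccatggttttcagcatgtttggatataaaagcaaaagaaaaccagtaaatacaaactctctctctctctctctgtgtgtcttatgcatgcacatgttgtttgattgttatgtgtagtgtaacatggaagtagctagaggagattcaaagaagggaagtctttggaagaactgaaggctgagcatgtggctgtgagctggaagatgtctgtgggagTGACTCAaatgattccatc
The Clec4d window held 3 PU.1 matches, the Clec4e window 2 PU.1 matches and 1 C/EBP match, and the Clec4a2 window 1 AP-1 match, with no overlap between motifs. Of the other members with an entry, Clec4a1 and Clec5a had 2 PU.1 matches each, the 2 windows of Clec4a3 had 0 and 1, and Clec4n had no entry. Among 32851 promoter windows of the same length, 28.3% held the PU.1 motif, 10.8% the C/EBP motif, 7.81% the AP-1 motif and 1.63% the NF-kB motif, which matched in no member. A match describes these letters and does not show binding.

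After removing shallow cells and predicted doublets, 89225 of 108892 barcodes remained (2554 to 10220 per library, with a median of 5353 to 17444 UMIs per cell), and libraries shared 2 to 44 barcodes. The cells formed 29 clusters, of which 9, with 48349 cells (54.2%, 930 to 7157 per library), were microglia by their markers, and 1, with 548 cells (12 to 77 per library), was border-associated macrophages. Neutrophils were 165 cells, 54 and 60 of them in Clec7a-KO 1 and 2 and 0 to 10 in each other library. Clec7a checked the labels: its UMIs over all barcodes numbered 57449 to 101134 in SOD1G93A, 755 to 1767 in nTg, 33 to 110 in Clec7a-KO and 74 to 240 in SOD1G93A/Clec7a-KO. Microglia of the groups without the transgene were mainly in clusters 7, 8 and 16, and those of the transgenic groups mainly in clusters 0, 2, 3, 4 and 5, and these are compared further on. Of the 14 libraries, 4 had more Xist than Ddx3y, 2 of 3 in nTg, 1 of 4 in Clec7a-KO, 0 of 3 in SOD1G93A and 1 of 4 in SOD1G93A/Clec7a-KO, so sex was uneven between the groups, and cluster 8 was led by Tsix and Xist.

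The 7 genes had their highest levels in myeloid classes. Border-associated macrophages had the highest level of Clec4n, Clec4a1 and Clec4a3, neutrophils had the highest level of Clec4e, Clec4d, Clec4a2 and Clec5a, and Clec5a was the only member that was higher in microglia than in border-associated macrophages in most libraries. Levels here are counts per 1000000 UMIs of a class (CPM), averaged over libraries with at least 20 cells of it, so 14 for microglia, 12 for border-associated macrophages and 2, both Clec7a-KO, for neutrophils. The order therefore mixes groups; within Clec7a-KO alone neutrophils were also highest for these 4 genes on the means, though by less than the SD for Clec4a2 and Clec5a, with Clec4e at 0.0748 CPM in microglia. Clec4n was at 193 ± 51.3 CPM (SD, n = 12) in border-associated macrophages, 30.6 ± 15.3 (SD, n = 2) in neutrophils and 1.92 ± 2.1 (SD, n = 14) in microglia, and was 1.71 ± 3.21 (SD, n = 11) in T and NK cells, 0 in astrocytes and 0.0524 in endothelial cells. Clec4e was at 762 ± 665 CPM (SD, n = 2) in neutrophils, 26.5 ± 42.7 (SD, n = 12) in border-associated macrophages and 5.004 ± 5.87 (SD, n = 14) in microglia. The order for Clec4d was the same, with 572 ± 529.99 CPM (SD, n = 2), 21.2 ± 25.4 (SD, n = 12) and 4.1 ± 4.58 (SD, n = 14), and for both genes neighbouring classes differed by less than, or about as much as, their spread. T and NK cells, at 3.41 ± 6.57 CPM of Clec4d (SD, n = 11), did not differ from microglia beyond their spread for Clec4d or Clec4n.

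Clec4a2 was present in all 3 of these classes, at 254 ± 24.3 CPM (SD, n = 2) in neutrophils, 212 ± 67.7 (SD, n = 12) in border-associated macrophages and 57.2 ± 30.95 (SD, n = 14) in microglia, and the first pair differed by less than the spread. Clec4a1 was at 140.4 ± 45.6 CPM (SD, n = 12) in border-associated macrophages and 1.21 ± 0.416 (SD, n = 14) in microglia, and Clec4a3 at 166 ± 62.1 (SD, n = 12) and 30.9 ± 12.9 (SD, n = 14). In every one of the 14 libraries Clec4n, Clec4a1, Clec4a2 and Clec4a3 were higher in border-associated macrophages than in microglia, by 98.1, 114, 3.6 and 5.4 times on the means. For Clec4n this pooled value hides the groups, with 47.9 times in SOD1G93A and 45.1 in SOD1G93A/Clec7a-KO. Without the transgene it was 14252 in nTg and 1392 in Clec7a-KO, where microglia had few Clec4n UMIs. Clec4e was higher there in 9 and Clec4d in 10 of 14 libraries. Clec5a stood apart, with 79.6 ± 15.001 CPM (SD, n = 14) in microglia against 48.3 ± 22.7 (SD, n = 12), and was higher in border-associated macrophages in 1 of 14 libraries. Its level in neutrophils, 123 ± 83.0 CPM (SD, n = 2), overlapped that of microglia within the spread, and endothelial cells had 0.763 CPM.

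**Figure D1:**
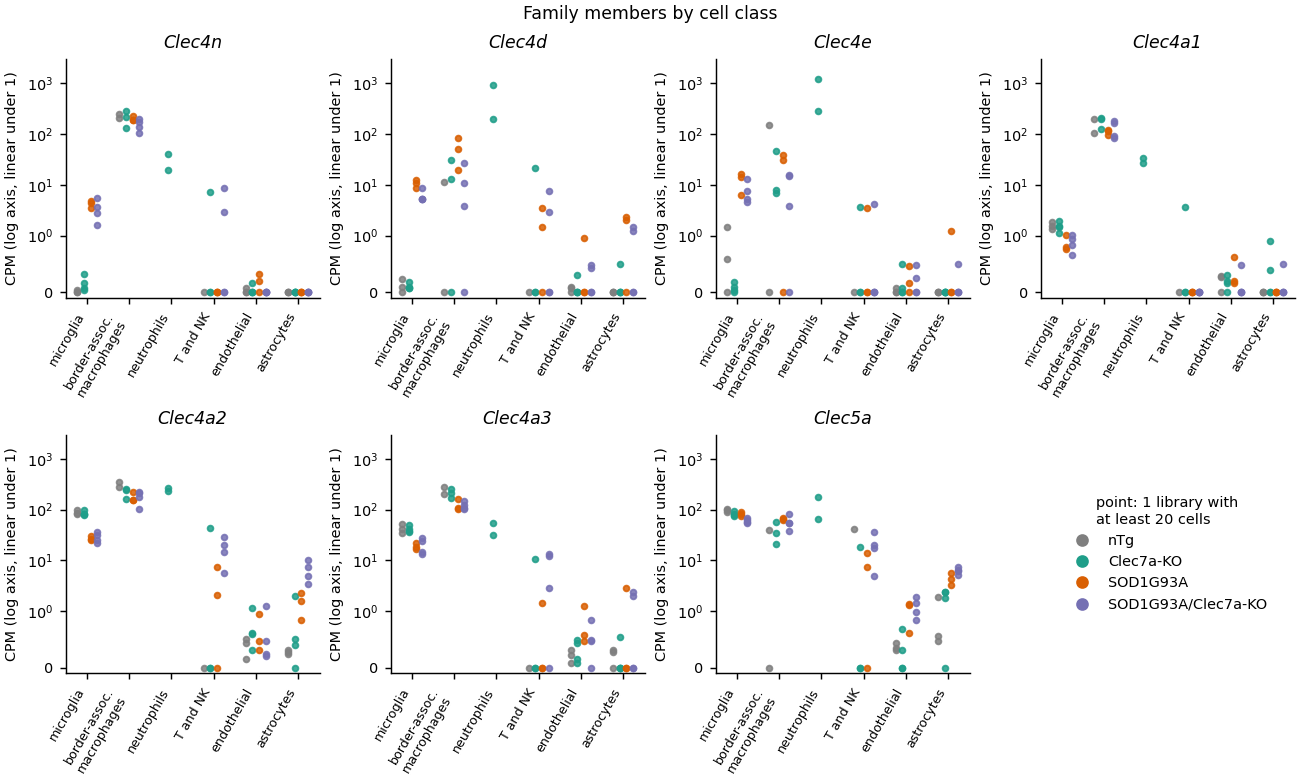
Level of each of the 7 genes in 6 cell classes, in CPM on a log axis that is linear under 1, where each point is 1 library with at least 20 cells of the class, coloured by group. Clec4n and Clec4a1 are highest in border-associated macrophages, Clec4e and Clec4d in neutrophils, and Clec5a is spread over microglia, border-associated macrophages and neutrophils.

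Where the RNA of a gene came from changed with the transgene. These shares mix levels per cell with the number and depth of cells captured, with 5145 microglia in nTg and 14778 in SOD1G93A. Of the 84 Clec4n UMIs in nTg cells, 97.6% were in border-associated macrophages and 1.19% in microglia, while of 1369 in SOD1G93A cells 20.7% and 75.1% were. The 972 Clec4n UMIs of SOD1G93A/Clec7a-KO were split in a like way, with 75.6% in microglia, and the 210 of Clec7a-KO had 79.5% in border-associated macrophages. For Clec4e, microglia held 37.1% of 116 UMIs in nTg but 94.3% of 3341 in SOD1G93A and 93.2% of 1524 in SOD1G93A/Clec7a-KO, and neutrophils held 86.9% of the 785 UMIs in Clec7a-KO. Clec4d had 48 UMIs in nTg, 14.6% of them in microglia, and 2838 in SOD1G93A, 91.05% of them in microglia. Clec4a2, Clec4a3 and Clec5a had at least 86.6% of their UMIs in microglia in every group. Clec4a1 was divided, with 35.9% to 56.0% of its UMIs in microglia over the groups. A cluster of 1485 cells that carried microglial markers but was led by antigen-presentation and B cell genes stayed unnamed, and held 7.51% of Clec4n and 8.34% of Clec4a2 UMIs in SOD1G93A/Clec7a-KO and 3.36% and 4.23% in SOD1G93A. Another unnamed cluster, of 2269 cells with microglial markers but more markers of another class among its leading genes, had 102 ± 22.8 CPM of Clec5a and 89.5 ± 28.9 of Clec4a2 (SD, n = 13), and held 1.12% to 5.29% of the Clec4a2 UMIs over the groups. Of the 48 nTg Clec4d UMIs, 29.2% were in an unnamed cluster with mural and endothelial markers.

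**Figure D2:**
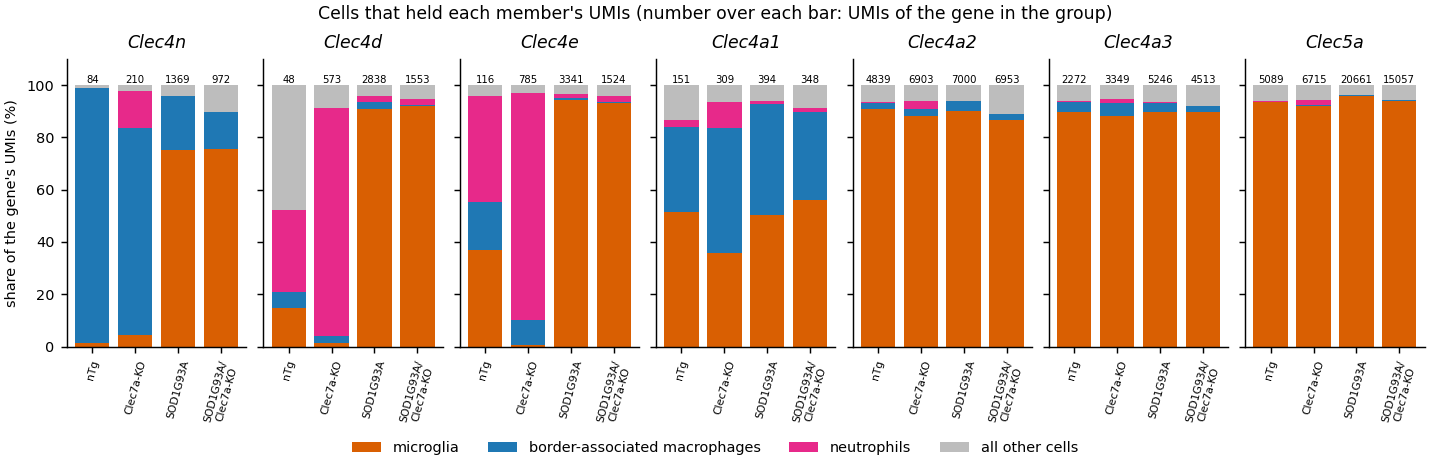
Share of each gene's UMIs, in percent, found in microglia, border-associated macrophages, neutrophils and all other cells, 1 stacked bar per group, with the number of UMIs over the bar. Clec4n, Clec4d and Clec4e bars are mostly microglial in the transgenic groups and not in the other groups, and those of Clec4a2, Clec4a3 and Clec5a are mostly microglial throughout.

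In microglia, Clec4n, Clec4d and Clec4e were nearly absent without the transgene and present with it. The inhibitory Clec4a2 fell by 1.24 on the log2 scale, and Clec4a1, Clec4a3 and Clec5a did not pass the test. Counts of the microglia of each library were summed and tested with edgeR's quasi-likelihood test on 16494 genes, with Benjamini-Hochberg adjusted p-values, and levels are CPM after TMM normalization. Of the 7 genes, 3 were higher and 1 was lower in SOD1G93A than in nTg, where 20.1% of all genes tested were called higher and 13.7% lower at an adjusted p under 0.05. All 7 passed the filter on low counts, but Clec4n, Clec4d and Clec4e passed through the transgenic libraries in which they are high, so that count is no support. The median log2 change was 0.23 over the 7 genes and 0.01 over all genes tested. By edgeR, 7326 of the 16494 genes were at an unadjusted p under 0.05. The share of all genes whose libraries did not overlap between groups is not given here. A lack of overlap, in this and the later comparisons, is therefore a description and no support. With sex, which was uneven between these groups, as a covariate, the same 4 were called by edgeR (Clec4n 8.39, Clec4d 6.75, Clec4e 5.74 and Clec4a2 -1.14), and the calls over all genes became 2328 higher and 1410 lower. Fewer cells of a kind within the microglia and less RNA per cell cannot be told apart in these sums.

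Clec4n (Dectin-2) was at 0.0318, 0 and 0 CPM in the 3 nTg libraries and at 3.79, 5.31 and 5.34 CPM in the 3 SOD1G93A libraries. The groups did not overlap, and the whole nTg group had 1 Clec4n UMI against 1028, while 3 UMIs, the floor used for a count of 0, are worth 0.169 and 0.238 CPM in nTg 2 and 3. The pooled ratio was 216 (exact 95% interval 38.7 to 8545, counting error only), and the fitted log2 change, which depends on the prior count, was 7.97 (SE 0.81, edgeR adjusted p = 6.4e-06). Clec4d, the partner of Mincle, was at 0.191, 0 and 0.0794 CPM in nTg and at 9.38, 13.01 and 13.9 CPM in SOD1G93A. Again the groups were apart, with 7 UMIs against 2584, a pooled ratio of 77.6 (37.6 to 193) and a log2 change of 6.74 (SE 0.46, edgeR adjusted p = 2.6e-07).

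Clec4e (Mincle) was at 1.18, 0 and 0.477 CPM in nTg and at 6.96, 19.4 and 16.3 CPM in SOD1G93A. SOD1G93A 1 was the lowest of the 3 SOD1G93A libraries and still above every nTg library, with 43 UMIs against 3151 in the groups and a pooled ratio of 15.4 (11.4 to 21.3). Of the 43 nTg UMIs, 37 were in nTg 1. The log2 change was 4.5 (SE 0.71, edgeR adjusted p = 0.00028). Neutrophils are rich in Clec4e and Clec4d. The sum over 10 neutrophil markers in these microglia was 0.282 to 2.46 CPM in nTg and 1.35 to 2.32 CPM in SOD1G93A. Of the 10 markers, 1 in nTg (Ly6g) and 3 in SOD1G93A (Mmp9, Ly6g and Ngp) were at 0.

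Clec4a2 (Dcir) was at 67.4, 82.0 and 66.6 CPM in nTg and at 33.0, 29.4 and 29.3 CPM in SOD1G93A. Every SOD1G93A library was below every nTg library, and the log2 change was -1.24 (SE 0.20, edgeR adjusted p = 0.00032). Its relative Clec4a3 was at 27.2, 42.8 and 33.8 CPM in nTg and 18.4, 26.8 and 21.2 in SOD1G93A. The groups did not overlap, and the log2 change of -0.64 (95% interval -1.28 to -0.01, edgeR adjusted p = 0.109) missed the threshold. With a replicate block Clec4a3 was called lower, though the replicate numbers did not pair the libraries. Clec4a1 was low in all groups, at 0.819 to 1.84 CPM over the 14 libraries, and its change of -0.42 (-1.04 to 0.19, edgeR adjusted p = 0.271) was not called. Without TMM factors the median of all genes moved to -0.47, the calls over all genes became 1424 higher and 6128 lower in place of 3319 and 2267, and Clec4a3 (-1.13) and Clec4a1 (-0.90) were called lower. Clec4a2 fell by 1.71 under that scaling.

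Clec5a (MDL-1) was at 70.3, 84.2 and 84.4 CPM in nTg and at 82.6, 107 and 91.1 CPM in SOD1G93A. The groups overlapped, and the log2 change of 0.23 (95% interval -0.04 to 0.51, edgeR adjusted p = 0.173) did not pass and turned to -0.25 without TMM factors.

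**Figure D3:**
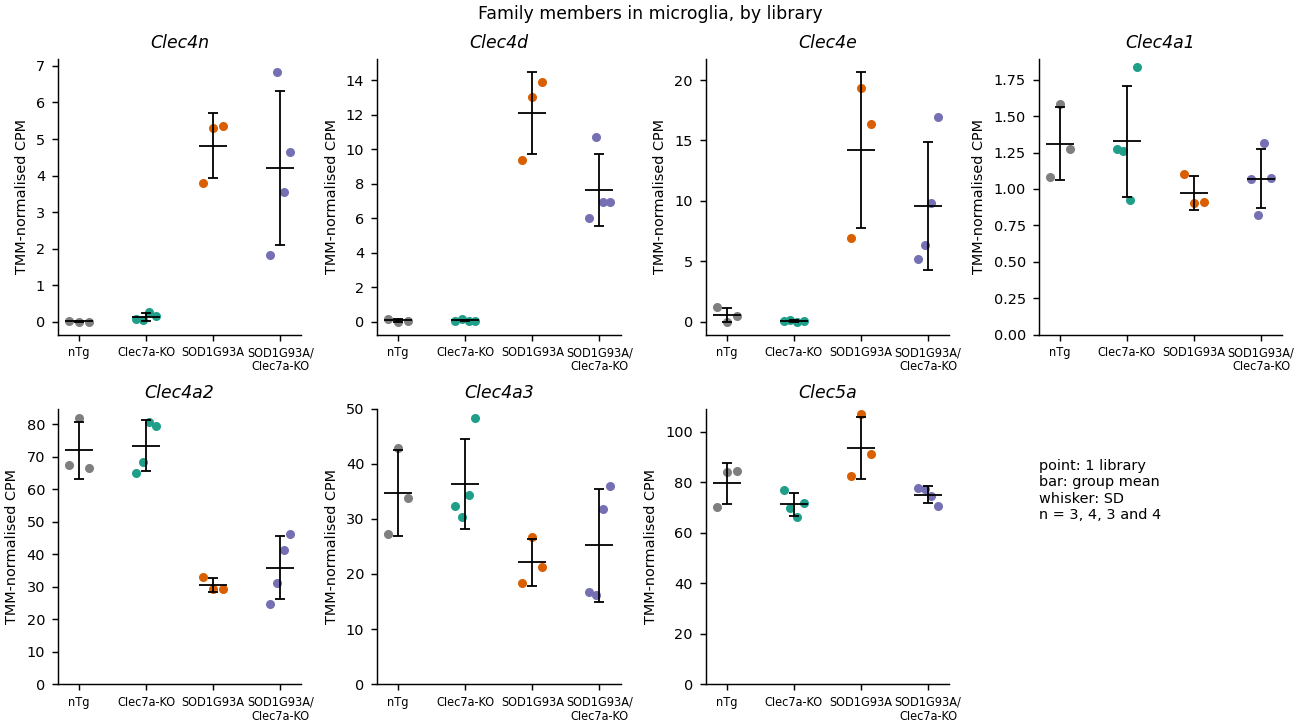
Level of each of the 7 genes in microglia in CPM after TMM normalization, where each point is 1 library, each bar a group mean and each whisker the SD (n = 3, 4, 3 and 4). Clec4n, Clec4d and Clec4e sit near 0 in nTg and Clec7a-KO and higher in both transgenic groups, Clec4a2 is lower in both, and Clec5a lies between 66.2 and 107 in all 14 libraries.

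In microglia, marker genes of other cell classes and genes of handling stress moved with the transgene in part, and not all in 1 direction. Summed over 8 markers of border-associated macrophages, the microglial level was 77.8 to 88.2 CPM in nTg and 74.0 to 106 in SOD1G93A. Lyve1 was at 0 in both groups and the other markers of that list were present. The sum over 7 monocyte markers was 5.64 to 7.23 CPM and 15.7 to 24.0 CPM, with Chil3 at 0 in both groups and the others present. In SOD1G93A/Clec7a-KO every marker of these lists and of the neutrophil list was present. Genes of the stress response to enzymatic dissociation summed to 36095 to 48426 CPM in nTg and 22845 to 27159 CPM in SOD1G93A, with 10 of 22 lower and 1 higher. Sums over 8 endothelial markers (52.0 to 92.5 and 145 to 183 CPM) and 6 markers of oligodendrocyte precursors (3.73 to 4.52 and 25.2 to 53.1 CPM) were also higher in SOD1G93A. Those over 8 neuronal markers (20.8 to 24.6 and 8.52 to 11.9 CPM), 7 B cell markers (137 to 151 and 82.5 to 123 CPM) and 6 ependymal markers (11.3 to 35.6 and 4.40 to 11.2 CPM) were lower. The sums of the remaining classes overlapped between these groups. The part of these markers in the members' changes was not tested.

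The same 4 genes changed when the transgene was compared on the knockout background, SOD1G93A/Clec7a-KO against Clec7a-KO. Here 3 of the 7 were higher and 1 lower, where 25.9% of all genes were called higher and 20.7% lower, and the median log2 change was 0.08 over the 7 and 0.01 over all genes. Clec4n was at 0.0639, 0.0371, 0.265 and 0.16 CPM in Clec7a-KO and at 1.82, 6.84, 3.54 and 4.66 CPM in SOD1G93A/Clec7a-KO, with no overlap. Its log2 change was 5.22 (SE 0.54, edgeR adjusted p = 3.8e-06), and the pooled ratio was 26.5 (13.9 to 58.3). Clec4d was at 0.0639, 0.148, 0.0662 and 0.08 CPM against 6.03, 10.7, 6.94 and 6.93 CPM. No library of one group reached the other, and the log2 change was 6.32 (SE 0.41, edgeR adjusted p = 6.4e-08).

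Clec4e was at 0.0319, 0.148, 0 and 0.08 CPM in Clec7a-KO and at 5.18, 6.35, 9.78 and 17.0 CPM in SOD1G93A/Clec7a-KO. The 4 double-mutant libraries were spread over a wide range but all lay above the knockout libraries, and the log2 change was 7.02 (SE 0.83, edgeR adjusted p = 1.3e-05). Clec4a2 was at 65.1, 68.3, 80.6 and 79.6 CPM against 24.7, 31.3, 41.4 and 46.3 CPM, again without overlap, and changed by -1.03 (SE 0.17, edgeR adjusted p = 0.00023). Clec4a3 changed by -0.53 (SE 0.26), Clec4a1 by -0.3 (SE 0.25) and Clec5a by 0.08 (SE 0.11), none called by edgeR (adjusted p = 0.104, 0.341 and 0.593). Without SOD1G93A/Clec7a-KO 3 or 4, Clec4a3 was called, at -0.74 and -0.80. The calls split into 4267 higher and 3415 lower, or 1919 and 7666 without TMM factors, where the median of all genes moved to -0.5, Clec4a3 and Clec4a1 were called lower and Clec5a turned to -0.44 and was called lower. These 2 transgene comparisons share no libraries. Neutrophil markers summed to 0.794 to 14.6 CPM in microglia of Clec7a-KO and 2.02 to 3.14 CPM in SOD1G93A/Clec7a-KO, monocyte markers to 7.52 to 8.65 and 15.1 to 26.4 CPM, and 14 of 22 stress genes were lower and 1 higher. Without Clec7a-KO 1 and 2, which held most neutrophils, Clec4n (4.28), Clec4d (6.68), Clec4e (7.92) and Clec4a2 (-1.14) were still called by edgeR.

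Loss of Clec7a was followed by no called rise in any of the 7 genes in microglia, with the transgene or without it. In SOD1G93A/Clec7a-KO against SOD1G93A, edgeR called 0.00606% of genes tested higher and 0.0243% lower, with 1874 at an unadjusted p under 0.05, and DESeq2 called 21 and 16. The values of Clec4n, Clec4e and Clec4d were below 0. Clec4n changed by -0.2 (95% interval -1.01 to 0.61), Clec4e by -0.59 (-1.7 to 0.51) and Clec4d by -0.66 (-1.24 to -0.09, unadjusted p = 0.0272). The edgeR adjusted p were 0.833, 0.62 and 0.432. A rise of Clec4n above 0.61 on the log2 scale, or of Clec4e above 0.51, was outside these intervals. With 1 library left out, Clec4n ranged from -0.57 to 0.05, Clec4e from -1.01 to -0.31 and Clec4d from -0.89 to -0.56. Clec5a was at 77.7, 77.5, 74.7 and 70.5 CPM in SOD1G93A/Clec7a-KO, below all 3 SOD1G93A libraries. Its change of -0.32 (-0.57 to -0.06, unadjusted p = 0.0179) had an edgeR adjusted p of 0.432 and was not called. Clec4a2 changed by 0.23 (-0.16 to 0.62), Clec4a3 by 0.18 (-0.41 to 0.77) and Clec4a1 by 0.14 (-0.42 to 0.69).

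Without the transgene, in Clec7a-KO against nTg, 0.00606% of genes were called higher and 0.0182% lower by edgeR and no member, with 544 at an unadjusted p under 0.05, while DESeq2 called 3 and 7. Clec4n had 9 UMIs in Clec7a-KO and 1 in nTg, a pooled ratio of 6.15 (exact 95% interval 0.853 to 269.7), which this depth could not resolve. Clec4e had 6 UMIs against 43 and a change of -3.11 (-5.42 to -0.8, unadjusted p = 0.0118, edgeR adjusted p = 1), where nTg 1 held most of the 43, and without nTg 1 it was -1.51. Clec4d changed by -0.23 (-1.77 to 1.31), Clec4a2 by 0.03 (-0.36 to 0.42) and Clec5a by -0.16 (-0.42 to 0.1). The test of whether the transgene's effect differed with the knockout called 0 genes by edgeR (0.0% in each direction). Before adjustment 474 genes passed 0.05, and DESeq2 called 1 gene in each direction. For Clec4n that difference was -2.75 (-5.63 to 0.14), for Clec4d -0.43 (-2.15 to 1.3) and for Clec4e 2.52 (-0.12 to 5.15), all resting on the few UMIs of the groups without the transgene.

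Genes within 1 Mb of Clec7a more often had low p-values in all 4 comparisons, and the differences between these shares were not tested. There, 59.1% of 22 genes were at an unadjusted p under 0.05 in SOD1G93A/Clec7a-KO against SOD1G93A and 31.8% in Clec7a-KO against nTg. Of these 22 genes edgeR called 4 and 3, Clec7a among them. Beyond 10 Mb and on other chromosomes it called 0 and 1 of 16326. In the transgene comparisons 86.4% of the 22 genes were at such a p, without and with the knockout, against 44.3% and 53.8% elsewhere in the genome. From 1 to 5 Mb, with 77 genes, the shares were 18.2% in SOD1G93A/Clec7a-KO against SOD1G93A (1 gene called by edgeR), 12.99% in Clec7a-KO against nTg, and 51.9% and 50.6% in the transgene comparisons without and with the knockout, so that only the last was below its share elsewhere. In the band from 5 to 10 Mb, with 69 genes that include the 6 Clec4 genes, the shares in the knockout comparisons were 18.8% and 5.8%, against 11.2% and 3.203% elsewhere in the genome, and 0 genes of that band were called by edgeR in either knockout comparison.

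**Figure D4:**
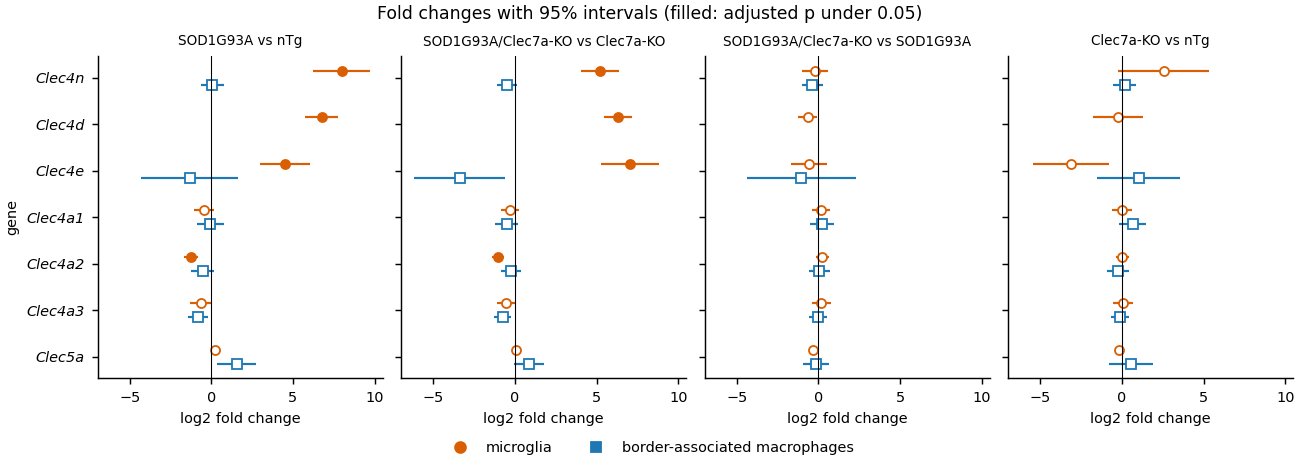
Log2 fold changes of the 7 genes with 95% intervals in 4 comparisons, with circles for microglia, squares for border-associated macrophages and filled symbols for an adjusted p under 0.05. Filled symbols appear for Clec4n, Clec4d, Clec4e and Clec4a2 in microglia in both transgene comparisons and for no gene in the knockout comparisons.

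Among the 9 microglial clusters, Clec4n and Clec4d were highest in clusters 2 and 0, Clec4e in cluster 0, and Clec4a2 in clusters 8, 7 and 16. Cluster 2 was led by Gpnmb and Atp6v0d2, cluster 0 by Mmp12 and Spp1, and clusters 7 and 16 had Crybb1 and P2ry12, the second a receptor of resting microglia, among their leading genes. The 7 genes and Clec7a were left out of the genes used for clustering, but the genes that cluster with them were not, so these levels are descriptions. Clusters 0 and 2 had at least 20 cells in 7 libraries, all transgenic, cluster 12 in 8, cluster 16 in 12, cluster 8 in 6 and cluster 7 in all 14, so the order mixes cluster with genotype. Clec4n was at 7.66 ± 3.77 CPM in cluster 2 and 7.04 ± 2.6 in cluster 0, which differed by less than their SD over libraries, and 0.217 in cluster 7. Clec4d was at 17.5 ± 4.85, 15.5 ± 6.44 and 0.204 CPM in the same clusters. Clec4e was at 23.3 ± 10.65 CPM in cluster 0, 8.97 ± 7.19 in the dividing cluster 12 (led by Mki67) and 8.86 ± 2.36 in cluster 2. Its levels in clusters 0 and 2 were apart by more than their SD, where those of Clec4n and Clec4d were not.

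Clec4a2 had the opposite order, with 83.4 ± 31.2 CPM in cluster 8, 81.1 ± 13.9 in cluster 7, 79.1 ± 25.7 in cluster 16, 18.9 ± 5.35 in cluster 2 and 13.7 ± 2.48 in cluster 0. The first 3 did not differ beyond their SD, and the last 2 differed by about their SD. Clec4a3 went from 46.2 ± 13.9 CPM in cluster 16 to 10.3 ± 2.29 in cluster 12, and Clec5a only from 95.02 ± 19.5 in cluster 16 to 53.1 ± 9.92 in cluster 2. The share of microglia in cluster 0 was 0.239% in nTg, 0.306% in Clec7a-KO, 22.9% in SOD1G93A and 18.3% in SOD1G93A/Clec7a-KO on the library means, and that of cluster 7 was 23.3%, 34.2%, 3.23% and 2.34%.

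**Figure D5:**
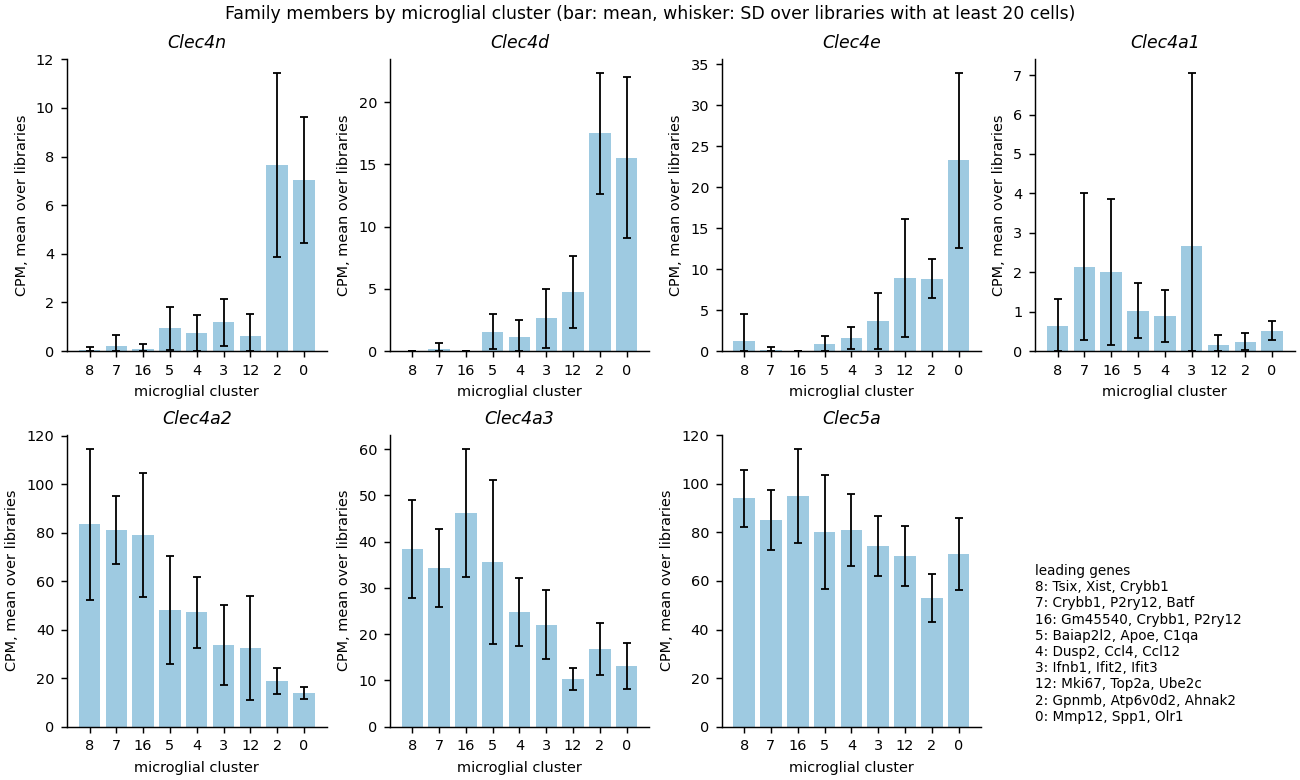
Mean level of each of the 7 genes in CPM in the 9 microglial clusters, with whiskers for the SD over libraries with at least 20 cells of the cluster (lower whiskers end at 0). The Clec4n and Clec4d bars are tallest in clusters 0 and 2 and that of Clec4e in cluster 0, while the Clec4a2 bars are shortest in clusters 0 and 2.

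Within cluster 0, SOD1G93A and SOD1G93A/Clec7a-KO libraries could be set side by side. Clec4d was at 21.5 ± 4.48 CPM (SD) in SOD1G93A and 11.1 ± 2.69 in SOD1G93A/Clec7a-KO, and Clec4n at 9.23 ± 0.513 and 5.4 ± 2.21. Clec4e was at 28.5 ± 9.48 and 19.4 ± 10.9, and Clec5a at 82.8 ± 3.01 and 62.2 ± 13.5. Clec4a2 was level, at 13.8 ± 2.53 and 13.7 ± 2.83 CPM. In cluster 2 the Clec4d values were 21.9 ± 0.766 and 14.1 ± 3.49 CPM, and in cluster 5, led by Baiap2l2 and Apoe, they were 2.92 ± 1.5 and 1.75 ± 0.636. These differences within clusters were chosen after their values were seen and were not tested.

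Clusters 4 and 7 were the microglial clusters that nearly every library filled, with 14175 cells (109 to 1690 per library). Restricted to them, an alternative added after seeing the data, most of the changes of Clec4n, Clec4d, Clec4e and Clec4a2 were still called. The share of all genes called in that run is not given here, so the number of members called is no support. The fitted values of Clec4d, Clec4e and Clec4a2 were smaller. Clec4n had 0, 4, 58 and 69 UMIs there in nTg, Clec7a-KO, SOD1G93A and SOD1G93A/Clec7a-KO, Clec4d had 4, 5, 143 and 51, and Clec4e had 3, 2, 166 and 93. In SOD1G93A against nTg, edgeR called Clec4n (adjusted p = 0.0246, with no fold given since nTg had 0 UMIs), Clec4e (3.59, adjusted p = 0.0101) and Clec4a2 (-0.69, adjusted p = 0.0206) but not Clec4d (2.97, adjusted p = 0.0536). On the knockout background Clec4n (3.56), Clec4d (2.78), Clec4e (4.99) and Clec4a2 (-0.59) were all called by edgeR, with adjusted p of 0.0034, 0.028, 0.00034 and 0.0102.

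The mix of these clusters differed between groups, with 2.29% of nTg and 27.3% of SOD1G93A microglia in cluster 4, which was led by Dusp2, Ccl4 and Il1b. Inside cluster 7, Clec4a2 was at 83.5 ± 7.25 CPM (SD, n = 3) in nTg, 85.9 ± 16.9 (SD, n = 4) in Clec7a-KO, 79.8 ± 5.14 (SD, n = 3) in SOD1G93A and 75.5 ± 20.5 (SD, n = 4) in SOD1G93A/Clec7a-KO. These 4 groups differed by less than their SD. In cluster 4, over libraries with at least 20 cells, it was at 54.1 ± 22.6, 59.7 ± 11.9, 37.8 ± 3.43 and 39.6 ± 7.18 CPM in the same order (n = 3, 3, 3 and 4). Clec4n, Clec4d and Clec4e were scarce inside both clusters, and Clec4n had 0 UMIs there in nTg. Clec4d was at 0, 0.1, 0.816 and 0 CPM on the group means in cluster 7, and at 1.42 ± 2.47 CPM in nTg and 2.21 ± 0.813 in SOD1G93A in cluster 4, where the groups differed by less than the SD of nTg. Clec4e was at 1.07 ± 1.85 and 2.6 ± 0.554 CPM there. Clec4n in cluster 4 was at 0.846 ± 0.188 CPM (SD, n = 3) in SOD1G93A and 1.39 ± 0.755 (SD, n = 4) in SOD1G93A/Clec7a-KO, and in cluster 5 at 1.38 ± 0.356 (SD, n = 3) and 1.31 ± 1.03 (SD, n = 4), differences within the SD of the double mutant. These levels within single clusters were not tested.

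In border-associated macrophages none of the 6 genes that could be tested passed in any comparison. With no filter on low counts, 3 values were called: Clec4d was higher in SOD1G93A than in nTg (2.93) and lower in SOD1G93A/Clec7a-KO than in SOD1G93A (-2.16), and Clec4e was lower in SOD1G93A/Clec7a-KO than in Clec7a-KO (-3.31). The share of all genes called without the filter is not given here, so these 3 calls are no support. In the main test Clec4d was under the count filter, which 4069 genes passed from 86776 to 608156 UMIs per library. The shares called in the main test were 0.0983% higher and 0.0246% lower in SOD1G93A against nTg, 0.147% and 0.0246% in SOD1G93A/Clec7a-KO against Clec7a-KO, and 0.0% and 0.0246% in each knockout comparison, with 387, 380, 229 (with the transgene) and 286 genes at an unadjusted p under 0.05 by edgeR. Clec4n was at 271 (44 UMIs), 225 and 122 CPM in nTg, 148, 237.5, 242 and 342 in Clec7a-KO, 244, 208 and 214 in SOD1G93A, and 118, 151, 194 and 230.3 in SOD1G93A/Clec7a-KO. The 4 groups overlapped, and the transgene's log2 change was 0.06 (95% interval -0.64 to 0.75) without and -0.47 (-1.09 to 0.14) with the knockout.

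Clec5a, Clec4a3 and Clec4e had unadjusted p-values under 0.05 in that class. Clec5a was at 22.5 ± 21.7 CPM (SD, n = 3) in nTg and 71.6 ± 5.26 (SD, n = 3) in SOD1G93A, a log2 change of 1.56 (0.37 to 2.76, edgeR adjusted p = 0.353). Clec4a3 was at 243 ± 62.1 CPM (SD, n = 3) in nTg and 137 ± 35.4 (SD, n = 3) in SOD1G93A, a change of -0.82 (edgeR adjusted p = 0.343), and on the knockout background it changed by -0.75 (edgeR adjusted p = 0.362). Clec4e changed by -3.39 there (-6.17 to -0.61, unadjusted p = 0.0194, edgeR adjusted p = 0.409). Clec4d, not tested with the filter, was at 12.3, 0 and 12.2 CPM in nTg (3 UMIs in all) and 54.2, 21.4 and 98.5 CPM in SOD1G93A, where 52 of the 76 UMIs were in SOD1G93A 3. Clec4e was uneven, at 460 CPM (60 UMIs) in Clec7a-KO 2, 169 CPM (21 UMIs) in nTg 2 and 0 to 51.9 CPM in the other 12 libraries. The sum over 7 monocyte markers in this class was 171 to 1583 CPM in Clec7a-KO and 57.8 to 559 CPM in the other groups, and that over 10 neutrophil markers was 0 to 88.9 CPM in all 14 libraries. The part of monocyte RNA in these Clec4e values was not tested.

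The response of microglia differed from that of border-associated macrophages when the difference itself was tested, with each library as a block. In SOD1G93A against nTg, 4.91% of 13965 genes differed between the classes at an adjusted p under 0.05, 4 of the 7 genes among them. Genes could pass the count filter through the class and group where they are high, transgenic microglia included, so that count is no support. In border-associated macrophages alone 4069 genes passed the filter, and Clec4d did not. The log2 change in microglia minus that in border-associated macrophages was 7.51 for Clec4n (SE 0.70, edgeR adjusted p = 9.4e-24), 5.49 for Clec4e (SE 0.71, edgeR adjusted p = 3.0e-12), -1.03 for Clec4a2 (SE 0.26, edgeR adjusted p = 0.0035) and -1.63 for Clec5a (SE 0.49, edgeR adjusted p = 0.022). For Clec4d it was 3.79 (SE 1.38, edgeR adjusted p = 0.0994) and not called. The Clec4e value rests on nTg 2, without which it was not called and the fit, against counts of 0, gave -7.78. Clec4a2 was not called without nTg 3 (-0.77) or SOD1G93A 2 (-0.75), nor Clec5a without nTg 2 (-1.01), nTg 3 (-1.56) or SOD1G93A 3 (-1.46).

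On the knockout background, where 9.29% of genes differed, the values were 5.32 for Clec4n, 6.76 for Clec4d, 10.28 for Clec4e and -1.04 for Clec4a2. All were called by edgeR (adjusted p = 1.8e-28, 1.8e-12, 1.6e-40 and 0.00029). The limits given above for the p-values and the filter of this fit hold here too. The SE for Clec4e was 0.75 here, against 0.83 in microglia and 1.33 in border-associated macrophages fitted alone. Clec5a, at -0.99, was not called with all libraries but was without SOD1G93A/Clec7a-KO 2, Clec7a-KO 3 or Clec7a-KO 4 (-1.2 to -1.41). In Clec7a-KO against nTg, where 0.408% of genes differed, Clec4e was called, at -4.49 (SE 0.83, edgeR adjusted p = 8.0e-05). It lost the call without nTg 1 (-2.18) or Clec7a-KO 2 (-2.57), and ranged from -17.77 to -2.18 with 1 library left out. In SOD1G93A/Clec7a-KO against SOD1G93A, where 0.222% differed, no member was called.

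At a matched depth, few microglia had a UMI of Clec4n, Clec4d or Clec4e even with the transgene. With each microglial cell thinned to 2000 UMIs, 0.64% of SOD1G93A microglia had a Clec4n UMI, 1.52% a Clec4e UMI and 1.48% a Clec4d UMI, on the library means. In nTg the shares were 0%, 0.0147% and 0%, where a count of 0 allows up to 0.0601%. Such bounds pool the cells of a group and leave out the spread between libraries. Before thinning the SOD1G93A shares were 4.64%, 7.5% and 9.52%. In endothelial cells of SOD1G93A, which should lack these genes, the shares were 0.0579%, 0.0579% and 0% (which allows up to 0.133%), and in its astrocytes they were 0%, 0% and 0.661%. The Clec4e share of nTg microglia was not above that of nTg endothelial cells, 0.0273%, after thinning, while the shares before it were 0.107% and 0.0257%, so these few cells give no order. Border-associated macrophages thinned alike had a Clec4n UMI in 26.7% of cells in nTg, 21.8% in Clec7a-KO, 19.3% in SOD1G93A and 22.4% in SOD1G93A/Clec7a-KO. The share with a Clec4a2 UMI was 6.32% in SOD1G93A and 6.21% in SOD1G93A/Clec7a-KO against 16.8% in nTg and 16.2% in Clec7a-KO, with 0.068%, 0.0822%, 0.118% and 0.137% in endothelial cells of these groups. Clec5a was found in 15.4%, 11.95%, 17.3% and 15.3% of microglia in the same order, with 0.313%, 0.425%, 0.0273% and 0.0886% in their endothelial cells, and before thinning 63.4% of SOD1G93A microglia had a Clec5a UMI and 28.4% a Clec4a2 UMI. Thinning left out 316, 295, 152 and 218 shallower microglia, and median depths per library before it were 9025 to 21917 UMIs for SOD1G93A microglia, 7717 to 10526 for nTg microglia and 3930 to 7951 for SOD1G93A endothelial cells.

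The signalling genes downstream of these receptors moved unevenly in microglia. Their counts stand against 20.1% of all genes called higher and 13.7% lower in SOD1G93A against nTg, and those of the Card9 and inhibitory arms lie at or under these shares. Of 11 adaptors and proximal kinases, 4 rose and 0 fell in SOD1G93A against nTg (median log2 change 0.11): Tyrobp, the adaptor of Clec5a, by 1.6 (SE 0.22), Hcst by 1.42, Fcer1g, the adaptor of Clec4n and Clec4e, by 1.11, and the kinase Fyn by 1.08. Of 16 genes between Card9 and NF-kB, 1 rose and 1 fell (median 0.06), Malt1 by 2.68 (SE 0.23) and Chuk by -0.52. Of 9 genes of the inhibitory arm, 1 rose and 1 fell (median 0.15): Lilrb4a, an inhibitory receptor, by 3.11 (SE 0.32), and Siglece, a sialic acid receptor, by -1.51. Of 11 cytokine genes tested from 14, which could pass the count filter through the libraries where they are high, 8 rose and 0 fell (median 2.95), among them Cxcl1 by 6.68 (SE 1.27), Il23a by 4.2, Il12b by 4.18 and Cxcl2 by 3.01.

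On the knockout background, where 25.9% of all genes were called higher and 20.7% lower, the counts were 4 higher and 0 lower for the adaptors, 1 and 1 for the Card9 arm, 3 and 2 for the inhibitory arm, and 8 and 0 for the cytokines. Tyrobp stood at 1865, 2099, 5650.2 and 7949 CPM in nTg, Clec7a-KO, SOD1G93A and SOD1G93A/Clec7a-KO on the group means. Of 13 other myeloid lectin receptors tested from 28, 10 were higher and 0 lower in SOD1G93A against nTg and 9 and 0 on the knockout background (medians 2.4 and 1.65), which again could pass the filter through the libraries where they are high. They were led by Colec12, a scavenger receptor, with 5.84, Clec12a with 5.19 and Olr1 with 4.68 in the first, ahead of Clec7a itself, which the list includes, with 4.2, and Cd72 with 4.13. In both knockout comparisons no gene of these lists was called except Clec7a itself, which changed by -8.36 with and -5.14 without the transgene.

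Over the 27 clusters with at least 100 cells, the genes whose mean level followed each member most closely were listed by Pearson's r, as a description across cell clusters that share libraries and depth. Clec4n was closest to Tlr8 (0.964) and Clec12a (0.953), Clec4e and Clec4d to each other (0.974), Clec4a1 to Cd300c (0.962), Clec4a2 to Siglece (0.984) and Themis2 (0.981), Clec4a3 to Lrrc25 (0.978) and Clec4a2 (0.9753), and Clec5a to Ncf1 (0.992), Spi1 (0.992) and Itgam (0.991).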

How the data were processed

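Per the file headers, the deposited matrices hold UMI counts per gene and barcode, whole numbers that the authors made with Cell Ranger (matrix software version 3.0.2). The submitters' processing notes name Cell Ranger, Seurat, DESeq2 and the build mm10. The 14 libraries were grouped by title, and 0 columns belonged to other samples. The members and gene lists were chosen with earlier results of these data known.

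Barcodes with under 500 genes, under 1000 UMIs or over 15% mitochondrial UMIs were removed (12090), then predicted doublets (7577, at 0.8% per 1000 cells, with 2 simulated doublets per cell). Clustering used scanpy 1.11.5 (2000 variable genes, 30 components, 15 neighbours found by exact distances, Leiden resolution 1, counts scaled to 10000 per cell). A cluster was named where at least 3 markers of a class were detected and it held at least 100 cells. Its markers also had to rise by a log2 fold of at least 1, after adding 5 CPM. It stayed unnamed where its 10 leading genes held more markers of another class (clusters 1, 6, 13, 19 and 28) or its depth was low. The exact distances and the minimum of 100 cells were set after earlier results had been seen, and the minimum kept 1 cluster of 71 cells with microglial markers unnamed (0.136% in nTg, 0.149% in Clec7a-KO, 0.169% in SOD1G93A, 0.132% in SOD1G93A/Clec7a-KO, as a share of the microglia with that cluster).

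Counts were summed per library over microglia (10256870 to 94868098 UMIs) and over border-associated macrophages (at least 10 cells), and all 4 groups were fitted together with edgeR 4.0.16 (R 4.3.3) after filterByExpr, with TMM factors and Benjamini-Hochberg adjustment over all genes tested. DESeq2 1.42.0 was an alternative. The test of the difference between classes, the runs without Clec7a-KO 1 and 2, which held most neutrophils, and the common-cluster run were added after seeing the data. The named genes are all 7 members, and of each list the called genes of largest change. The result of 1 list is not reported here. No oligodendrocyte class was found, so endothelial cells served as background. The floor is 3 counts, per library for levels and per group of thinned cells for shares. Intervals of pooled ratios cover counting error only, and those of log2 changes come from the edgeR fit.

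Tested on simulated data for SOD1G93A against nTg, the microglial fit recovered 41% of genes changed by log2 1 and 81% of those changed by log2 2, over 16494 genes. The fit of border-associated macrophages recovered 13% and 79% over 4069 genes, and that of the class difference 32.8% of genes changed by log2 2 over 13674 genes. Total UMIs per library were 28819852 to 141204910.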

Additional observations from a re-analysis of the deposited data

Results flagged for a closer look

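In 9 instances a response was called different between microglia and border-associated macrophages of the same libraries. The fit gave both classes the same spread per gene, taken as known without error. It called 4.91% of all genes in SOD1G93A against nTg, 9.29% in SOD1G93A/Clec7a-KO against Clec7a-KO and 0.408% in Clec7a-KO against nTg. Genes could pass its count filter through the class and group where they are high, so the 9 calls are no support. Each value is the log2 change in microglia minus that in border-associated macrophages. In SOD1G93A against nTg it was 7.51 for Clec4n, 5.49 for Clec4e, -1.03 for Clec4a2 and -1.63 for Clec5a. In SOD1G93A/Clec7a-KO against Clec7a-KO it was 5.32 for Clec4n, 6.76 for Clec4d, 10.28 for Clec4e and -1.04 for Clec4a2, and in Clec7a-KO against nTg it was -4.49 for Clec4e. In SOD1G93A against nTg, Clec4a2 lost its call in 2 and Clec5a in 3 of the 14 runs with 1 library left out. The Clec4e values rest in part on 2 libraries: in border-associated macrophages Clec4e was at 169 CPM in nTg 2, and at 460 CPM in Clec7a-KO 2 against 8.15 to 51.9 CPM in the other Clec7a-KO libraries. Clec7a-KO 2 stood apart from its group there by Dixon's 95% criterion. Of 28 groups of 4 libraries examined it was the only such group, and chance flags about 1 in 20.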

How the results depend on the processing

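The 8 microglial values called in the transgene comparisons gave 216 values under the alternatives, of which 215 kept their call and sign. Of these values 0 changed sign, and 1, Clec4d in SOD1G93A against nTg within clusters 4 and 7, lost the call. The alternative without clusters near another myeloid class removed no cells, and runs without a library of another group kept every library compared. Such values had little or no room to differ, so the count overstates the agreement. Of 1115 values not called either way, 68 changed sign. The counts of members called that follow are a description. The share of all genes called in the same run is given above only for the runs without TMM factors. In SOD1G93A against nTg the members called lower numbered 2 with a replicate block, 3 without TMM factors and 2 with only the compared groups fitted. In SOD1G93A/Clec7a-KO against Clec7a-KO they numbered 2 with a replicate block, 4 without TMM factors, 2 with library number as a covariate and 1 to 2 with 1 library left out (2 without SOD1G93A/Clec7a-KO 3 or 4). Clec5a reversed to -0.44 there without TMM factors. Same-numbered libraries correlated from -0.19 to 0.36, so the numbers do not pair the libraries, and the block left the 3 higher members as they were and added Clec4a3 (-0.64 and -0.57). Leaving out 1 library moved the SOD1G93A against nTg values to 7.57 to 10.56 for Clec4n, 6.27 to 8.38 for Clec4d, 3.99 to 6.11 for Clec4e and -1.35 to -1.12 for Clec4a2. In border-associated macrophages with no filter, 1 member was higher in SOD1G93A against nTg (Clec4d, 2.93), 1 lower in SOD1G93A/Clec7a-KO against SOD1G93A (Clec4d, -2.16) and 1 lower against Clec7a-KO (Clec4e, -3.31), and the cause was not tested. Called differences between the classes also lost their call: that in SOD1G93A against nTg held 2 to 4 members with 1 library left out (2 without nTg 2 or nTg 3), with Clec4e from -7.78 without nTg 2 to 7.77 without nTg 1, and that in Clec7a-KO against nTg 0 to 1 (0 without nTg 1 or Clec7a-KO 2), and 0 without Clec7a-KO 1 and 2. Not thinned, the shares of SOD1G93A microglia with a UMI were 4.64% for Clec4n, 7.5% for Clec4e, 9.52% for Clec4d, 1.31% for Clec4a1, 28.4% for Clec4a2, 24.1% for Clec4a3 and 63.4% for Clec5a. At Leiden resolution 0.5 there was no border-associated macrophage class, so its values could not be recomputed. A cluster of 1772 cells named neutrophils then had H2-Aa, H2-Eb1 and Mrc1 among its leading genes. No monocyte or dendritic cell class was found, and whether the border-associated macrophage class holds other myeloid cells was not tested.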
